A study of Mus musculus with 2 samples.

Results

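The 37 genes described here encode parts of the lysosome, and were chosen as a list of named genes from among the 31053 genes measured. All 37 were found in the data by symbol. By role they are 9 proteases, 9 membrane proteins, 9 glycosidases and sulfatase, 5 lipid enzymes and cofactors, 3 parts of the proton pump, and the group of the regulator Tfeb with the autophagy receptor Sqstm1.

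The study profiled cells of the optic nerve of Wildtype mice of the 129S1/SvlmJ strain, males and females pooled, by droplet single-cell RNA-seq. A library called injured came from 5 nerves after optic nerve crush (ONC), in which the nerve is squeezed behind the eye, and the other, called uninjured, from 5 nerves without a crush. Per the series design the mice were 10 weeks old and ONC was done at 8 weeks, 2 weeks before collection, whereas the sample labels give postnatal day 56 and a time of 2 weeks after crush for both samples, so that the groups were taken from the sample titles. The pooled nerves of a condition were loaded as 6000 cells into 1 library, so there is no replicate, no p-value is given, and every interval below is a 95% interval that covers counting error only.

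The lysosome is the acidic compartment in which a cell breaks down proteins, lipids, sugars and whole organelles. A V-type ATPase pumps protons into it, soluble hydrolases made in the secretory pathway do the digestion, and heavily glycosylated membrane proteins such as LAMP1 and LAMP2 line it. Oligodendrocytes, the myelinating cells of the central nervous system, depend on it for the turnover of myelin lipids, and several of the enzymes listed here are the ones whose loss causes leukodystrophies or other storage diseases. Many lysosome genes are known to share an E-box-like element that binds TFEB and its relatives.

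The element is shown first because it is what many of the members are known to share in sequence. RefSeq promoter windows of GRCm38.p6, which run from 250 bases before to 50 bases after the start of each gene in RefSeq, were matched to 33 of the 37 members, all but Asah1, Ctsb, Ctsh and Laptm4b. The 6 letters CACGTG were found in 13 of these 33 windows (39.4%) and in 8.09% of the windows of 27025 genes. The longer form of 7 letters, TCACGTG or CACGTGA on the other strand, which contains the 6, was found in 11 of 33 (33.3%) and in 4.29% of all windows. The 100 bases before the start are printed for the members with the 7 letters and the highest ratios of injured to uninjured level in oligodendrocytes (Naglu and Ctsa), for those with the lowest (Lgmn and Arsa), and for Lamp1, which was picked after its window was searched because it held most matches. For Naglu, Ctsa and Lgmn this RefSeq start lies inside the gene as placed by GENCODE, and so do the letters marked below. GENCODE begins Naglu at 101070012, Ctsa at 164832873 and Lgmn at 102439813 (minus strand). Capitals mark the 7 letters, or 8 where both forms overlap.
Naglu, chr11:101069994-101070093, plus strand: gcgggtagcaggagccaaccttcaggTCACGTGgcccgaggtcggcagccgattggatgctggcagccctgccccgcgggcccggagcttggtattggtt
Ctsa, chr2:164833673-164833772, plus strand: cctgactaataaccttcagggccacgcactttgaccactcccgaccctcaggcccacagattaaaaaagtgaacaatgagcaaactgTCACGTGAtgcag
Lamp1, chr8:13159061-13159160, plus strand: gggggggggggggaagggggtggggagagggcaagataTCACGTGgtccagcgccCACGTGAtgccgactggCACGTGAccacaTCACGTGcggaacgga
Lgmn, chr12:102439093-102439192, minus strand: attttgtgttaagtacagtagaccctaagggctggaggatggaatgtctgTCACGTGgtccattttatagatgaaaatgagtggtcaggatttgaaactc
Arsa, chr15:89477425-89477524, minus strand: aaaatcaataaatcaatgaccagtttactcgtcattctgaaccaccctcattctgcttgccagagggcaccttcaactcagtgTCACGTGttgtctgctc

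Lamp1 held 4 matches, which began 62, 45, 28 and 16 bases before the start. In oligodendrocytes, the 10 compared members with the 7 letters had a median ratio of 1.48 (range 0.891 to 1.97) and 0 at or past 2-fold, and the 19 compared members with a window but without the letters had a median of 1.52 (range 0.607 to 4.20) and 4 at or past 2-fold. A match is a run of letters in this window and not a measured binding site.

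The authors typed the barcodes as oligodendrocyte precursor cells (OPCs), newly formed oligodendrocytes (NFOs) or oligodendrocytes. The uninjured library held 58 OPC, 44 NFO and 857 oligodendrocyte barcodes, and the injured library 17, 100 and 293, with 0 barcodes shared between the libraries. Oligodendrocyte barcodes had a median of 3060 UMIs (unique molecular identifiers, each counting 1 captured RNA molecule) without injury and 1268 after ONC. NFO medians were nearly equal, at 1259.5 and 1258.5 UMIs, and OPC medians were 2290 and 4120. Markers fitted the types: 8 oligodendrocyte markers made 64152 CPM (summed UMIs of the genes, scaled to 1000000 UMIs) in uninjured and 55015 in injured oligodendrocytes, against 2049 and 570 in OPCs, and 6 OPC markers made 12917 and 11760 CPM in OPCs and 37.6 and 66.9 in oligodendrocytes. NFO markers were highest in NFOs (4972 and 7503 CPM), although NFOs also held 8233 and 12451 CPM of oligodendrocyte markers. Macrophage and microglia markers differed between the libraries within every type. A list of 16 of them made 58.3 CPM in uninjured and 367 CPM in injured oligodendrocytes, 85.0 and 762 CPM in NFOs, and 146 and 357 CPM in OPCs. NFO barcodes were also poor in the nuclear RNA Malat1, with medians of 0.154% of UMIs without injury and 0.112% after ONC, beside 5.27% in uninjured oligodendrocytes. The defining macrophage markers Ptprc, Aif1 and C1qc stood at 1, 1 and 5 UMIs in all uninjured oligodendrocytes together and at 8, 20 and 50 UMIs in injured ones.

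The lysosome genes together took more of the RNA of injured than of uninjured oligodendrocytes. They made up 21913 of the 4149375 UMIs of uninjured oligodendrocytes (0.528%) and 22269 of the 2302349 UMIs of injured ones (0.967%), a ratio of 1.83 (1.80 to 1.87). Ctsb, Cd63 and Lamp1 had the most UMIs of it after ONC, and without them the ratio was 1.49 (1.45 to 1.53). Single uninjured barcodes had a median share of 0.484% (range 0 to 2.50%) and injured ones of 0.818% (0.0820 to 4.66%), so that the ranges overlapped. In NFOs the summed share was 0.471% without injury and 0.651% after ONC, a ratio of 1.38 (1.25 to 1.53), and in OPCs it was 0.461% and 0.411%.

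Gene by gene, 32 of the 37 members had at least 50 UMIs in oligodendrocytes over both libraries and were compared. A ratio of injured to uninjured CPM of at least 2 or at most 0.5 is counted here as past 2-fold. By this rule 5 of the 32 were higher after ONC, namely Ctsb, Cd63, Sqstm1, Hexa and Ctsl, against 5.98% of the 8591 genes compared in oligodendrocytes, and 0 were lower, against 4.06%. The median log2 ratio of the 32 was 0.53 (1.45-fold), and that of all compared genes 0.05. The interval of the ratio lay above 1 for 18 members, below 1 for 2 (Lipa and Atp6ap1), and on both sides of 1 for 12. The matching shares of all 8591 compared genes are not given here, so these interval counts alone do not set the members apart.

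**Figure D1:**
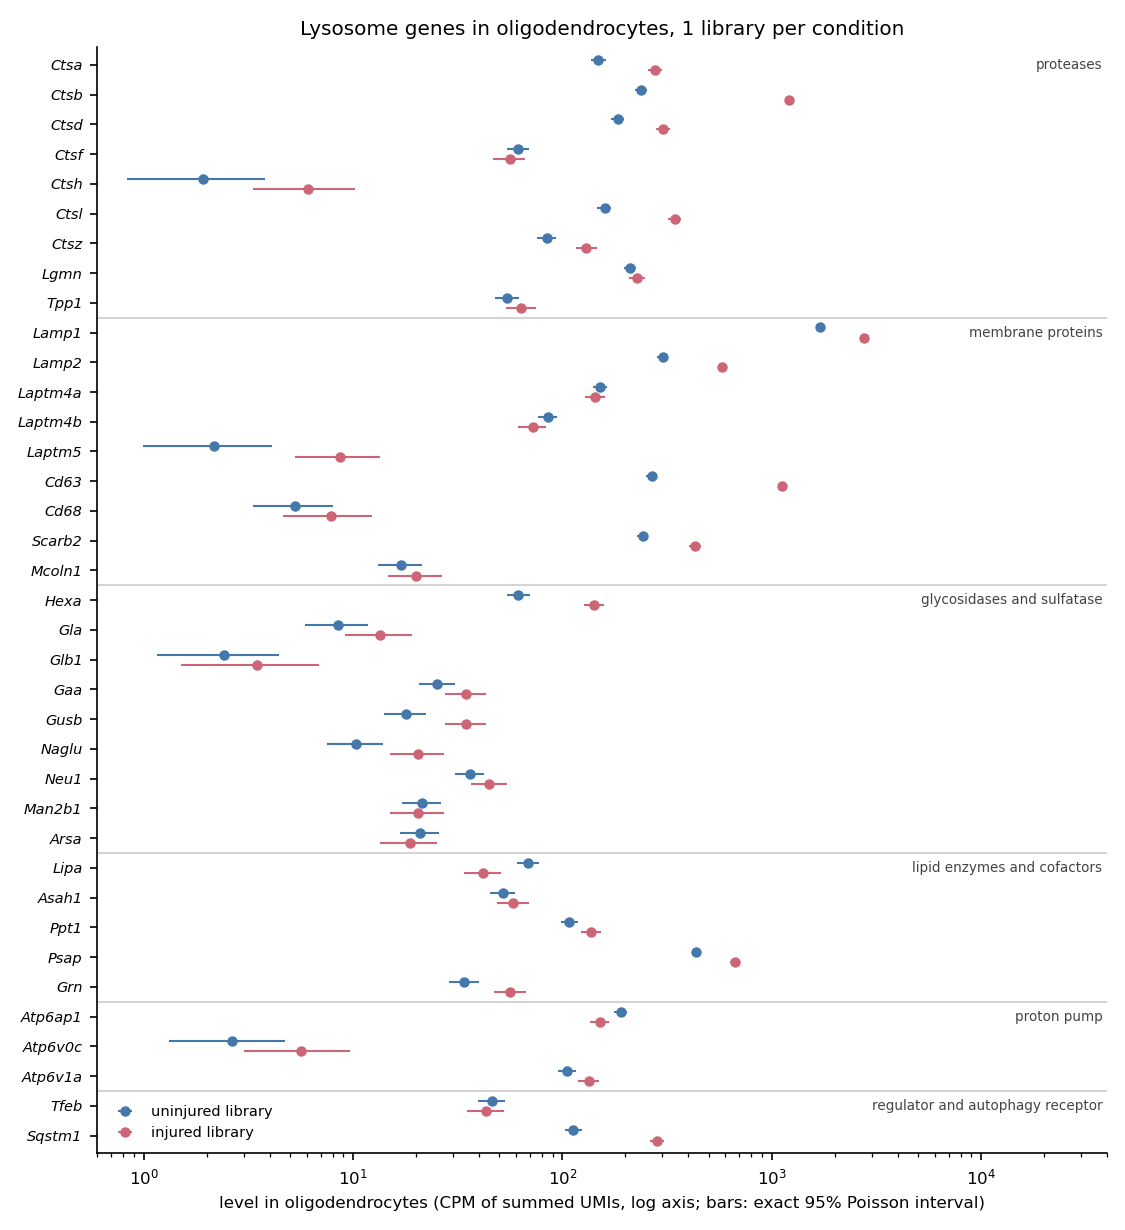
Level of each of the 37 lysosome genes in oligodendrocytes (CPM of summed UMIs, log axis) in the uninjured and the injured library, grouped by role, with exact 95% Poisson intervals as bars. Ctsb (238 and 1211 CPM) and Cd63 (267 and 1121 CPM) show the widest gaps among the well-counted members, while Lipa and Atp6ap1 lie lower in the injured library.

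Among the proteases, Ctsb, which encodes the cysteine protease cathepsin B (ENSMUSG00000021939, chromosome 14 of GRCm38, 63122462 to 63145923), differed most. It stood at 238 CPM (223 to 253) in uninjured and 1211 CPM (1166 to 1257) in injured oligodendrocytes, a ratio of 5.09 (4.73 to 5.47). Ctsl, for the related cathepsin L (ENSMUSG00000021477, chromosome 13, 64359337 to 64370890), stood at 159 and 344 CPM, a ratio of 2.16 (1.95 to 2.40). Ctsa, whose product also protects neuraminidase and beta-galactosidase from degradation, stood at 149 and 278 CPM, a ratio of 1.87 (1.67 to 2.09). The other proteases differed less. Ctsd, for cathepsin D, the main lysosomal aspartic protease, had a ratio of 1.64 (1.48 to 1.82), and Ctsz one of 1.54 (1.32 to 1.81). Tpp1, Lgmn (legumain, an asparaginyl endopeptidase) and Ctsf had ratios of 1.16, 1.08 and 0.912, each with an interval that held 1. Ctsh was counted 8 times without injury and 14 times after ONC, too few for the comparison. As a sum, the proteases differed by 2.29-fold (2.20 to 2.38), and without Ctsb by 1.56-fold (1.48 to 1.63).

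Of the membrane proteins, Cd63, a tetraspanin of late endosomes, lysosomes and exosomes (ENSMUSG00000025351, chromosome 10, 128900989 to 128912822), stood at 267 CPM (252 to 283) without injury and 1121 CPM (1079 to 1166) after ONC, a ratio of 4.20 (3.91 to 4.51). Lamp1 (ENSMUSG00000031447, chromosome 8, 13159161 to 13175338) had the most UMIs of all members, 7072 of the 21913 lysosome UMIs in uninjured oligodendrocytes, and stood at 1704 and 2759 CPM, a ratio of 1.62 (1.56 to 1.68). Lamp2, whose splice form LAMP2A is the receptor of chaperone-mediated autophagy, stood at 301 and 582 CPM, a ratio of 1.93 (1.79 to 2.09). Scarb2, which carries glucocerebrosidase to the lysosome as LIMP-2, stood at 242 and 430.0 CPM, a ratio of 1.77 (1.62 to 1.94). The transmembrane proteins Laptm4a and Laptm4b did not share this direction, with 152 and 144 CPM (ratio 0.947, 0.826 to 1.08) and 85.1 and 72.1 CPM (0.848, 0.700 to 1.02). Mcoln1, the calcium channel TRPML1, had a ratio of 1.18 (0.798 to 1.74). Laptm5 and Cd68, which are known from myeloid cells, were counted 9 and 22 times without injury and 20 and 18 times after ONC.

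Of the 9 glycosidases and sulfatase, Hexa alone was past 2-fold. It encodes the alpha subunit of beta-hexosaminidase, which breaks down GM2 ganglioside (ENSMUSG00000025232, chromosome 9, 59539540 to 59565109), and stood at 61.7 and 142 CPM, a ratio of 2.30 (1.95 to 2.72). Naglu and Gusb, which act on heparan sulfate and other glycosaminoglycans, lay just inside the limit at 1.97 (1.27 to 3.05) and 1.95 (1.40 to 2.71), with 43 and 74 UMIs in uninjured and 47 and 80 in injured oligodendrocytes. Gaa, the acid glucosidase of glycogen, had a ratio of 1.37 (1.01 to 1.85), and the intervals of Gla, Neu1, Man2b1 and Arsa held 1. Arsa, which removes the sulfate from the myelin lipid sulfatide, stood at 21.0 CPM without injury and 18.7 CPM after ONC. Glb1 was counted 10 and 8 times.

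The lipid enzymes and cofactors were mixed. Psap, the precursor of the saposins that present sphingolipids to their hydrolases, stood at 437 and 665 CPM, a ratio of 1.52 (1.42 to 1.63). Grn (progranulin) had a ratio of 1.66 (1.299 to 2.12) and Ppt1, which removes palmitate from proteins, one of 1.28 (1.10 to 1.48), while Asah1 (acid ceramidase) stood at 1.12 (0.894 to 1.39). Lipa, the acid lipase that frees cholesterol and fatty acids from cholesteryl esters (ENSMUSG00000024781, chromosome 19, 34492318 to 34527474), had the lowest ratio of all compared members, with 68.7 CPM (285 UMIs) without injury and 41.7 CPM (96 UMIs) after ONC, 0.607 (0.477 to 0.768).

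The 2 compared parts of the proton pump lay on either side of 1. Atp6ap1, an accessory subunit, stood at 190 CPM without injury and 151 CPM after ONC, a ratio of 0.797 (0.700 to 0.905), and Atp6v1a, the catalytic subunit of the cytosolic sector, at 105 and 134 CPM, a ratio of 1.27 (1.09 to 1.47). The sum of the 3 pump genes had a ratio of 0.976 (0.887 to 1.07). Atp6v0c, of the membrane ring, was counted 11 and 13 times, and GENCODE names 2 pseudogenes of it, with which reads could be shared. Tfeb, the transcription factor that drives lysosome genes, stood at 46.0 and 43.0 CPM, a ratio of 0.934 (0.725 to 1.20). Sqstm1, the autophagy receptor p62 (ENSMUSG00000015837, chromosome 11, 50199366 to 50210827), stood at 113 CPM (103 to 123) and 282 CPM (261 to 305), a ratio of 2.50 (2.22 to 2.82).

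The 2 libraries differed in the depth of their oligodendrocyte barcodes, and the lysosome genes differed with it. Of 857 uninjured barcodes, 157 (18.3%) had under 1000 UMIs, and of 293 injured ones, 133 (45.4%). Barcodes of 1000 to under 8000 UMIs were 497 and 76, and barcodes of 8000 UMIs or more 203 and 84, with medians of 11054 and 22473 UMIs in this deepest class. The deepest class supplied 58.7% of the oligodendrocyte UMIs of the uninjured and 86.9% of those of the injured library, and 58.9% and 90.0% of the Ctsb UMIs, so the values above are mainly those of the deepest barcodes. Oligodendrocyte markers were present throughout, from 36289 CPM in the shallowest injured barcodes to 72130 CPM in the deepest uninjured ones. NFO markers were highest in the shallowest class, at 2416 CPM without injury and 3623 CPM after ONC. They made 1058 and 941 CPM in the deepest class, beside 4972 and 7503 CPM in barcodes typed as NFOs.

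In the deepest class, 32 members were compared and 8 were past 2-fold higher after ONC, against 7.78% of the 7631 genes compared there, and 0 were lower, against 3.13%. The 8 were Ctsb, Cd63, Naglu, Hexa, Sqstm1, Lamp2, Scarb2 and Ctsl. The median log2 ratio of the members was 0.53 and that of all genes in this class 0.14. Ctsb stood at 239 and 1254 CPM here, a ratio of 5.25 (4.80 to 5.76), and Cd63 at 270 and 1207 CPM, a ratio of 4.47 (4.10 to 4.88). Lamp2 (279 and 625 CPM) and Scarb2 (200 and 443 CPM) had ratios of 2.24 (2.04 to 2.47) and 2.21 (1.98 to 2.48). The macrophage list made 57.8 CPM without injury and 137 CPM after ONC in these barcodes, and its defining markers Ptprc, Aif1 and C1qc stood at 1, 0 and 4 UMIs against 0, 1 and 12.

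**Figure D2:**
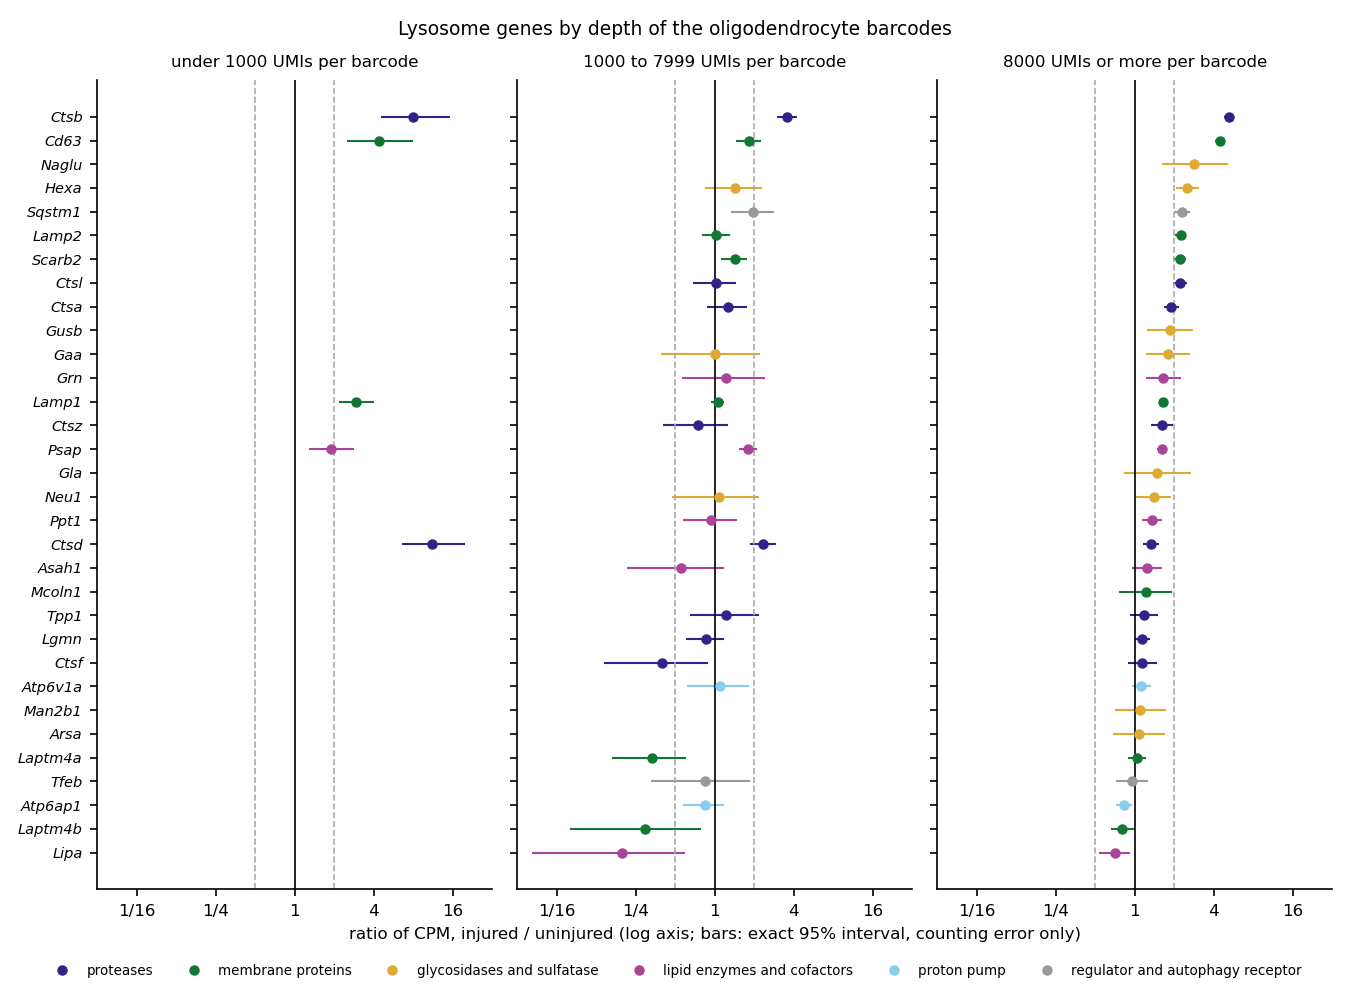
Ratio of injured to uninjured CPM (log axis, bars are exact 95% intervals for counting error) of the members compared in oligodendrocyte barcodes of each depth class, coloured by role, with dashed lines at 0.5 and 2. Members with under 50 UMIs in a class have no point there, and Ctsd moves from 11.1 in the shallowest class to 1.33 in the deepest while Ctsb stays above 2 in all.

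Single barcodes of the deepest class could be read one by one, although 1 UMI is worth more CPM in the shallower uninjured ones, so that these scatter more. Ctsb ranged from 0 to 728 CPM (median 206) in the 203 uninjured barcodes and from 411 to 2685 CPM (median 1207) in the 84 injured ones, and 84 of 84 injured barcodes lay above the uninjured median. Cd63 ranged from 0 to 1437 CPM (median 195) and from 85.8 to 3503 CPM (median 1110.5), with 83 of 84 above the uninjured median. The ranges of both genes overlapped. Lamp1 lay between 318 and 3322 CPM (median 1767) without injury and between 599 and 4676 CPM (median 2840) after ONC, with 78 of 84 above. Sqstm1 had medians of 108 and 273 CPM, with 79 of 84 above, and Lamp2 of 249 and 608 CPM, with 75 of 84 above. Atp6ap1 and Laptm4a overlapped almost fully, with 33 and 48 of the 84 injured barcodes above the uninjured median. All 37 genes together took 0.297 to 0.787% of the UMIs of an uninjured barcode and 0.487 to 1.53% of those of an injured one, and 73 of the 84 injured barcodes lay above the highest uninjured one.

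**Figure D3:**
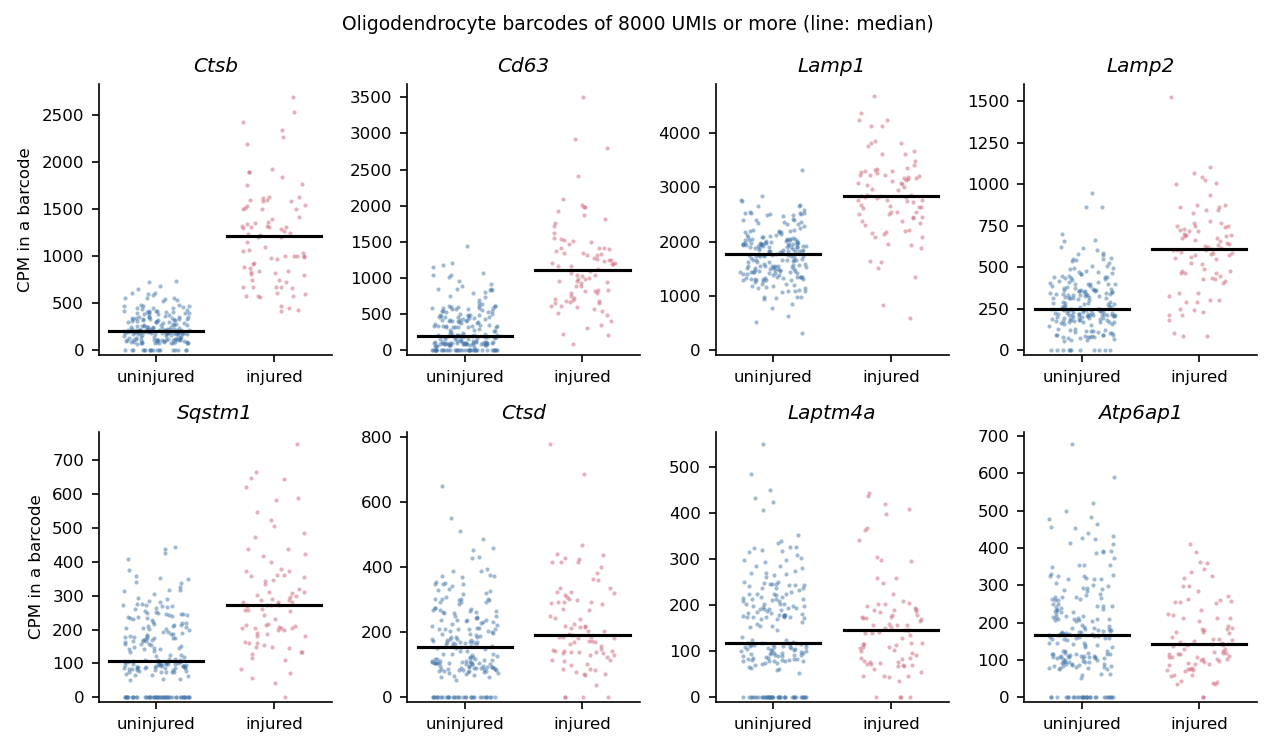
CPM of 8 lysosome genes in each oligodendrocyte barcode of 8000 UMIs or more (203 uninjured and 84 injured), 1 point per barcode, with the median as a line. For Ctsb and Cd63 nearly all injured barcodes lie above the uninjured median, whereas those of Laptm4a and Atp6ap1 spread over the same range as the uninjured ones.

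Within the deepest injured barcodes, the 9 genes Ctsb, Cd63, Lamp1, Lamp2, Ctsl, Scarb2, Sqstm1, Hexa and Ctsd went together only loosely. Over their 36 pairs, Spearman's rho across the 84 barcodes ran from -0.15 to 0.37 with a median of 0.15, the highest being that of Ctsb with Cd63. In the 203 uninjured barcodes it ran from -0.23 to 0.23 with a median of 0.03. The points share a library, and the CPM of Ctsb itself had a rho of 0.24 with barcode depth in the injured library.

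In barcodes of 1000 to under 8000 UMIs the members were split. Of 26 compared, 2 were past 2-fold higher after ONC (5.57% of 5256 genes), namely Ctsb (245 and 877 CPM) and Ctsd (213 and 500 CPM), and 4 were past 2-fold lower (12.8%), namely Lipa, Laptm4b, Laptm4a and Ctsf. Laptm4a, for one, stood at 158 CPM (253 UMIs) without injury and 52.4 CPM (11 UMIs) after ONC, a ratio of 0.332 (0.164 to 0.604). The members' median log2 ratio was 0.06 and that of all genes -0.07. Cd63 (271 and 496 CPM) was short of 2-fold at 1.83 (1.46 to 2.27). Ctsl (159 and 162 CPM), Lamp1 (1660 and 1753 CPM) and Lamp2 (343 and 353 CPM) had intervals that held 1 in this class.

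In barcodes of under 1000 UMIs only 5 members reached 50 UMIs, and 4 of them were past 2-fold higher after ONC, where 32.2% of 522 genes were past 2-fold higher and 37% lower. Ctsd, Ctsb and Cd63 had 16, 14 and 17 UMIs without injury, and reached 50 only through the injured barcodes. The count of members higher in this class is therefore shaped by the minimum. Ctsd led, at 146 CPM (16 UMIs) without injury and 1620 CPM (148 UMIs) after ONC, a ratio of 11.1 (6.62 to 19.9). Ctsb stood at 128 and 1029 CPM, a ratio of 8.06 (4.57 to 15.3), Cd63 at 155 and 679 CPM, and Lamp1 at 574 and 1686 CPM. The fifth, Psap, had a ratio of 1.91 (1.29 to 2.85). These shallow injured barcodes also held by far the most macrophage RNA: the list made 155 CPM (17 UMIs) without injury and 4072 CPM (372 UMIs) after ONC, with Ptprc, Aif1 and C1qc at 0, 0 and 0 UMIs against 6, 12 and 29. Malat1, a nuclear RNA, took a median of 2.86% of their UMIs without injury and 0.228% after ONC, and lay under 0.5% in 19 of 157 and 101 of 133 barcodes. The part of macrophage RNA and of barcodes poor in nuclear RNA in the shallow differences was not tested.

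The members followed the macrophage list to unequal degree. Ctsd stood at 1620, 500.3 and 222 CPM in injured oligodendrocytes from the shallowest to the deepest class, beside 4072, 948 and 137 CPM of the macrophage list, and at 146, 213 and 167 CPM in uninjured ones. The shallowest class held 21.2% of the Ctsd UMIs of injured oligodendrocytes and 3.97% of all their UMIs. Laptm5 (109, 28.6 and 2.00 CPM), Ctsh (54.7, 23.8 and 2.00 CPM), Cd68 (76.6, 19.1 and 3.50 CPM) and Grn (186, 47.6 and 51.5 CPM) were likewise highest in the shallowest injured barcodes. Ctsb did not follow, at 1029, 877 and 1254 CPM. Tfeb and Lipa went the other way, with 1 and 0 UMIs in the shallowest injured barcodes against 12 and 8 in the shallowest uninjured ones; the 0 of Lipa allows up to 40.4 CPM (upper exact Poisson limit), beside 72.9 CPM (31.5 to 144) without injury.

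**Figure D4:**
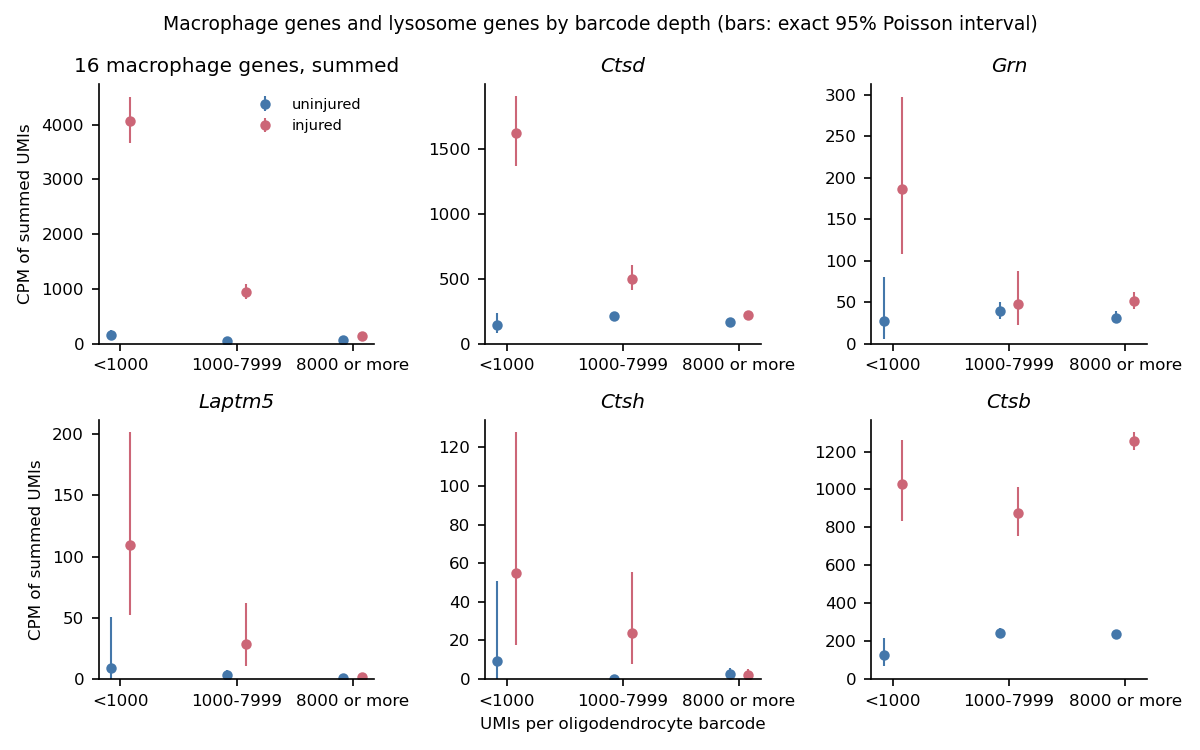
Summed level of 16 macrophage and microglia genes and levels of 5 lysosome genes (CPM, with exact 95% Poisson intervals) in oligodendrocyte barcodes of the 3 depth classes, by library. The macrophage genes, Ctsd, Grn, Laptm5 and Ctsh are highest in the shallowest injured barcodes, while injured Ctsb lies between 877 and 1254 CPM in every class.

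Parting injured oligodendrocytes by Malat1 largely repeated the split by depth, so it is no separate view. Of the 133 barcodes poor in Malat1, 101 were of the shallowest class, 32 of the middle and 0 of the deepest. Their median was 774 UMIs, beside 9803.5 in the other 160. In the 133 with Malat1 under 0.5% of UMIs, Ctsd stood at 1155 CPM (976 to 1357) and the macrophage list at 2591 CPM, and in the other 160 at 253 CPM (232 to 275) and 236 CPM. Cd63 was lower in the former (648 against 1149 CPM), as were Lamp2 (258 against 601 CPM) and Sqstm1 (140 against 291 CPM). With oligodendrocytes limited to barcodes with Malat1 at 0.5% or more in both libraries, Ctsb had a ratio of 5.15 and Cd63 one of 4.30. Ctsd had one of 1.37. The limit left 2174201 of the 2302349 UMIs of injured oligodendrocytes and all barcodes of the deepest class. It removed 111 of 2788 Ctsb and 83 of 2582 Cd63 UMIs after ONC, so the ratios of these genes could hardly change. With barcodes limited to those with 0 UMIs of the macrophage list (713 uninjured and 40 injured), the ratios were 5.05 for Ctsb, 3.66 for Cd63, 3.05 for Sqstm1, 2.22 for Hexa and 1.93 for Ctsl.

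In NFOs 13 members could be compared, and 3 were past 2-fold higher after ONC, against 13.3% of 1695 genes, with 0 lower, against 4.01%. All genes leaned up here, with a median log2 ratio of 0.20, and the members' median was 0.68. Injured NFOs held 351851 UMIs and uninjured ones 94130, so genes reached the minimum of summed UMIs mainly through the injured library. A member lower after ONC was thus less likely to be compared, and the count of 0 lower and the median are shaped by this minimum. Tpp1, with 13 UMIs without injury and 22 after ONC, was under it at a ratio of 0.453 (0.218 to 0.978). Tfeb, described below, was under it with a ratio above 1. Lamp2 stood at 85.0 CPM (8 UMIs) without injury and 202 CPM (71 UMIs) after ONC, a ratio of 2.37 (1.142 to 5.71). Ctsb stood at 297 and 693 CPM, a ratio of 2.33 (1.57 to 3.58), and Ctsl at 276 and 580 CPM, a ratio of 2.10 (1.39 to 3.29). The intervals of all 3 reach below 2. Ctsd (266 and 523 CPM) and Lamp1 (669 and 1233 CPM) followed at 1.97 (1.29 to 3.12) and 1.84 (1.41 to 2.44). Cd63, which stood at 457 and 551 CPM, had a ratio of 1.21 (0.864 to 1.72), and Psap one of 0.972 (0.684 to 1.41). Tfeb, with 1 UMI in 94130 without injury and 24 in 351851 after ONC, was under the minimum for comparison, and its ratio of 6.42 had an interval from 1.05 to 264. Macrophage RNA moved with the library in NFOs as well (85.0 and 762 CPM, with Ptprc, Aif1 and C1qc at 0, 0 and 0 against 2, 4 and 23 UMIs), and its part in these ratios was not tested.

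OPCs of the injured library, at 17 barcodes, were too few for ratios. Ctsb stood at 257 CPM (187 to 345) without injury and 187 CPM (117 to 283) after ONC, and Cd63 at 572 CPM (464 to 697) and 408 CPM (301 to 541), so that both had the lower value after ONC, with intervals that overlapped. Lamp1 stood at 467 CPM (370.3 to 581) and 842 CPM (684 to 1025), with intervals that did not meet. Ctsd stood at 233 and 349 CPM with intervals that overlapped.

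**Figure D5:**
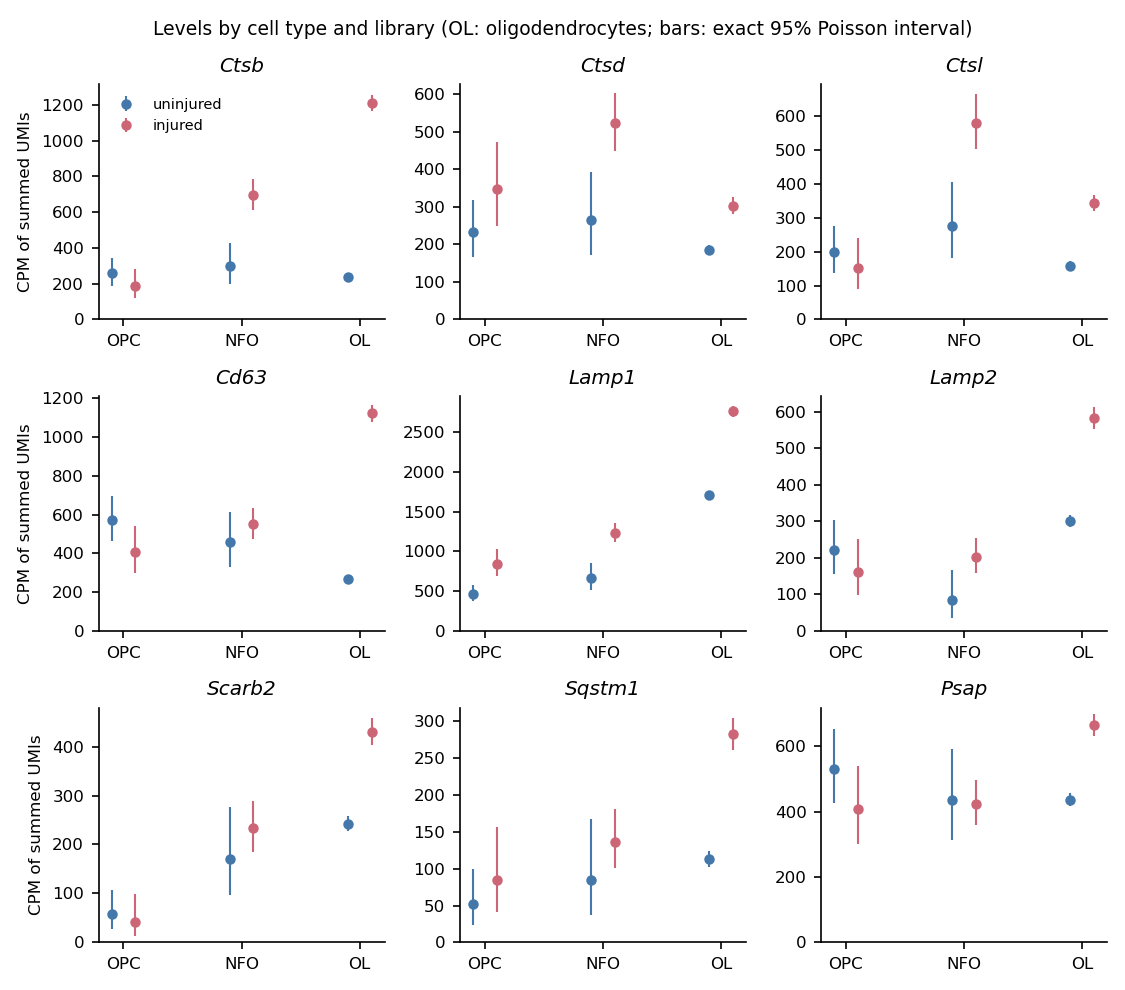
Levels of 9 lysosome genes (CPM of summed UMIs, exact 95% Poisson intervals) in OPCs, NFOs and oligodendrocytes (OL) of the uninjured and the injured library. Ctsb lies between 238 and 297 CPM in all 3 uninjured types and at 187, 693 and 1211 CPM in injured OPCs, NFOs and oligodendrocytes, while Lamp1 is higher in oligodendrocytes than in OPCs in both libraries.

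Across the uninjured lineage, the lysosome genes as a whole differed little between OPCs (0.461% of UMIs) and oligodendrocytes (0.528%), but their makeup differed. Of 30 members compared, 7 were past 2-fold higher in oligodendrocytes than in OPCs (19.9% of 7806 genes) and 6 past 2-fold lower (18.6%), with a median log2 ratio of -0.30 beside -0.10 for all genes. Counts this near the share of all genes say nothing particular of the members. Lamp1 stood at 467 CPM in OPCs and 1704 CPM in oligodendrocytes, a ratio of 3.65 (2.93 to 4.61), and Scarb2 at 58.4 and 242 CPM, a ratio of 4.15 (2.25 to 8.69). Lgmn stood at 75.9 and 212 CPM. Ctsz, with 1 UMI in OPCs, had a ratio of 14.5 whose interval ran from 2.58 to 572. Lower in oligodendrocytes were Laptm4a (461 and 152 CPM, 0.329, 0.260 to 0.422) and Cd63 (572 and 267 CPM, 0.467, 0.380 to 0.581), and among the glycosidases Man2b1, Gusb and Gaa. Summed, the glycosidases and sulfatase had a ratio of 0.444 (0.352 to 0.566). Ctsb did not differ beyond counting error between uninjured OPCs, NFOs and oligodendrocytes, at 257 (187 to 345), 297 (198 to 430) and 238 CPM (223 to 253), and in the injured library its order was OPCs, NFOs and oligodendrocytes with intervals that did not meet.

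A wider list of 119 other lysosome and autophagy genes had a smaller median difference than the members. In oligodendrocytes 97 were compared, 10 were past 2-fold higher after ONC and 1 was lower, with a median log2 ratio of 0.27, beside the 5.98% and 4.06% of all genes. Among the highest were Ctss, a cathepsin known from myeloid cells, which is also on the macrophage list (4.82 and 58.6 CPM, ratio 12.2), Optn, an autophagy receptor (2.65), and Galc, which breaks down the myelin lipid galactosylceramide (22.7 and 51.7 CPM, ratio 2.28, 1.73 to 3.02). The lowest were Atg9a, a membrane protein of autophagosome formation (43.4 and 21.3 CPM, ratio 0.491, 0.350 to 0.676), Rnaset2a (0.503), Zkscan3, known as a repressor of autophagy genes (0.621), Acp2 (0.640) and Ids (0.645). Of 15 further pump genes compared in oligodendrocytes, 1 was past 2-fold higher, and their median log2 ratio was 0.37, beside 0.05 for all compared genes. In NFOs 24 of the wider list were compared, of which Rraga, a GTPase of nutrient sensing at the lysosome (2.78, 1.12 to 8.93), and Atp6v0a2, a pump subunit (2.41, 1.53 to 3.98), were past 2-fold higher and 0 lower, beside the 13.3% and 4.01% of all genes. The next highest were Gabarapl2 (1.77), Atp6v1e1 (1.74) and Npc2 (1.70), and the lowest Arsb (0.578, 0.450 to 0.748), Map1lc3a (0.813), Lamtor1 (0.818), Atp6v0e2 (0.832) and Atp6v0e (0.851). As for the members, the minimum of summed UMIs shapes the count of 0 lower in NFOs.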

How the data were processed

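The authors demultiplexed with bcl2fastq 2.17.1.14, aligned to mm10 and counted UMIs with Cell Ranger 1.3, filtered and subsampled cells, capped UMIs per cell against doublets, typed the cells, and normalized with Seurat 4.0.3. The deposited values are the natural log of 1 plus 10000 times a gene's UMIs over a barcode's UMIs. Here UMIs were recovered from the smallest value of each barcode, whole within 0.001 in 100% of 959 uninjured and 410 injured barcodes, and summed per library and type. No doublet caller was run. CPM have exact Poisson intervals, and ratios exact conditional intervals. With 1 library per condition no test was made. Genes with at least 50 summed UMIs and classes of at least 20 barcodes were compared, a step tested on simulated data. Positions came from GENCODE vM21 and promoters from RefSeq (GRCm38.p6). All 37 members were named, as were the 5 highest and lowest of the wider list, except that some of these are not reported here. Members, lists and depth classes were chosen with earlier results of these data known. The analysis used Python 3.11.15, numpy 2.4.6, scipy 1.17.1, pandas 2.3.3 and matplotlib 3.10.9. The combined table of both libraries was not used, and cell types outside the lineage were not analysed here.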

Additional observations from a re-analysis of the deposited data

How the results depend on the processing

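Of 395 recomputed gene ratios, 314 stayed within the interval of the reported ratio and 81 left it, and 0 members past 2-fold came out on the other side of 1. Among members short of 2-fold, Lamp2 came down to 0.897 under 8000 UMIs and Naglu to 0.591 with mean CPM. Ctsb (3.89 to 5.25) and Cd63 (2.09 to 4.47) were past 2-fold in oligodendrocytes under 10 of 10 settings, Ctsd (1.33 to 5.09) under 3. The 10 settings include the reported one. Neither they nor the 395 ratios cover the stricter cell filter or the changed minimums of UMIs. In barcodes under 8000 UMIs, Ctsl (1.49), Hexa (1.61) and Sqstm1 (1.66) were no longer past 2-fold. Against 5 members past 2-fold higher in oligodendrocytes, 8 were with mean CPM over barcodes (5.92% of all genes compared under that setting), with at least 1 summed UMI (16.6%), with a stricter cell filter of 500 genes or more and mitochondrial UMIs up to 10% (6.10%), with no UMI of the macrophage list (7.38%), and at 8000 UMIs or more (7.78%). Against 0 lower, 2 were with mean CPM (22.6% of all genes), 4 with no macrophage UMI (20.4%) and 4 under 8000 UMIs (15.6%). The median log2 ratio of 0.53 was 0.0508 with mean CPM and 0.0802 under 8000 UMIs. The median of all genes under these settings is not given here, and the 0.05 of the reported setting does not stand for it. More of all genes were lower than higher there, 22.6% against 5.92% with mean CPM and 15.6% against 4.46% under 8000 UMIs. In NFOs, 5 members were higher with TMM scaling (18.0% of all genes), and 10 (31.2%) higher and 5 (20.2%) lower with at least 1 summed UMI. The stricter cell filter left 19 uninjured NFO barcodes and the demand for no macrophage UMI 16 injured ones, both under the minimum of 20 for a ratio; the counts there, given as values only, were 1 of 12 members (13.6%) and 1 of 1 (17.3%). Malat1 at 0.5% or more left 16 uninjured NFO barcodes. The TMM factor was 1.07 (log2 0.10) in oligodendrocytes and 0.882 (log2 -0.18) in NFOs. With classes cut at 2000 and 10000 UMIs, the shallowest median log2 ratio was 0.80 in place of 2.13. The middle class then had 1 member higher, Ctsb (6.92% of all genes), and 1 lower, Lipa (10.5%). Ctsd, Laptm4a, Laptm4b and Ctsf were no longer past 2-fold there. No paired analysis was possible because each condition has 1 library.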
